A study of Homo sapiens with 12 samples.

Results

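The genes described here are CD33 and the other members of the Siglec family that were followed in OCI-AML3, an established cell line of human acute myeloid leukaemia with a mutated NPM1 gene. The 10 genes, CD33, SIGLEC1, SIGLEC5, SIGLEC7, SIGLEC9, SIGLEC10, SIGLEC14, SIGLEC15, SIGLEC16 and CD22, were taken by name from a table of 26259 genes. Of these, 9 had at least 1 count and 6 had enough counts to be tested. The study sequenced poly(A) RNA of 12 libraries in 4 groups of 3. The wt group was the parental cell line. The CD33 KO, CD123 KO and CD33/CD123 KO groups were cells edited with Cas9 protein and a guide RNA against CD33, against CD123 (the IL3RA gene) or against both. Each edited group was depleted or sorted by surface antigen and then grown from a single cell, so each is 1 clone, and no unedited clone was sequenced. Clonal differences and the edits therefore cannot be told apart. Nothing in the labels says that the 3 libraries of a group came from separate cultures, so p-values measure the spread between libraries, which may be technical.

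Siglecs are cell-surface receptors whose outermost immunoglobulin domain binds sialic acid, the sugar that caps most glycan chains on human cells. CD33 and its closest relatives carry tyrosine motifs (ITIMs) in the cytoplasmic tail. Once phosphorylated by Src-family kinases, an ITIM recruits the phosphatases PTPN6 and PTPN11 and dampens activating signals. SIGLEC14, SIGLEC15 and SIGLEC16 instead pair with the activating adaptor DAP12, encoded by TYROBP. CD33 is found on most myeloid leukaemia blasts and is the target of antibody and CAR T cell therapies. Most Siglec genes lie in a cluster on chromosome 19, which arose by gene duplication.

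The stretch of CD33 that the guide targets and the closest matches to the guide in related genes are shown first. The former places the cut in the transcript that was counted. The latter show how far the nearest match in each gene differs from the guide. The CD33 guide matched the strand opposite to the gene exactly at chr19:51225834-51225853 (GRCh38, GENCODE v29 transcripts). The site lies in coding sequence, in exon 3 of the 7 exons of the transcript with the most exons. All 4 protein-coding transcripts of CD33 hold it. In the surrounding bases, written on the strand of the gene (chr19:51225806-51225878), capitals mark the site with its PAM, the short motif Cas9 needs beside a target.
CD33 context: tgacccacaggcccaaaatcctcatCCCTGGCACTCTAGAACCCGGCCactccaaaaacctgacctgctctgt

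The closest stretch beside a PAM was then searched for in the transcripts of each other gene. Any place on either strand could be taken, so a match need not be the part of that gene that corresponds to the CD33 site. The lines below run on the strand of the guide, end with the PAM, and mark mismatches to the guide in capitals.
CD33 guide: ggccgggttctagagtgcca
CD33 site: ggccgggttctagagtgccaggg
SIGLEC9 site: AgccggACtcCagGgtgccTggg
SIGLEC7 site: AgccAgACtcCagGgtAccGggg
SIGLEC10 site: CCcAgggGtctagGgCCccaggg
The CD33 site had 0 mismatches, SIGLEC9 (chr19:51125628-51125647, exon 2 of 7) had 6, SIGLEC10 (chr19:51416002-51416021, exon 5 of 11) had 7 and SIGLEC7 (chr19:51144437-51144456, exon 2 of 7) had 8. Of the other genes, SIGLEC15, SIGLEC16 and CD22 had 7 mismatches, each at a place outside annotated coding sequence. SIGLEC1 and SIGLEC14 had 8 and SIGLEC5 had 9. Introns were not searched, and editing at these places was not measured.

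Library totals ran from 15583315 to 61827969 counts. A count of 0 in 1 library allows a level of up to 0.0504 to 0.187 CPM (3 counts), where CPM is the usual unit of counts relative to library size, here after TMM scaling, and this covers counting error only. Of the 10 genes in a list of myeloid blast and granulocyte markers, 9 or 10 had counts in each group, and their summed level was 6730 to 7070 CPM in wt and 8880 to 9960 CPM over the 3 clones. Gene counts sum all exons and so do not show whether a site is edited. IL3RA stood at 7.54 ± 1.50 CPM in wt (SD, n = 3), 4.80 ± 0.810 in CD33 KO, 3.52 ± 0.604 in CD123 KO and 7.64 ± 1.56 in CD33/CD123 KO. Groups are named by their labels throughout. In all comparisons a gene was called, and is said to have risen or fallen, at an adjusted p under 0.05 with a log2 fold change beyond 1.5 in either direction (edgeR quasi-likelihood test, Benjamini-Hochberg adjustment over 14010 genes).

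In the CD33 KO clone, CD33 mRNA itself was still abundant, while SIGLEC9, SIGLEC10, SIGLEC16 and SIGLEC1 fell. SIGLEC10 was the Siglec gene called in all 3 clones. SIGLEC9 and SIGLEC1 also fell in the CD33/CD123 KO clone, and SIGLEC7 was higher in every clone by less than the fold threshold. All of the falling genes started from low levels in wt, under 2 CPM on average, against about 50.4 CPM for CD33. The 3 comparisons against wt share the same wt libraries.

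Of the 6 Siglec genes tested, 4 were called lower in CD33 KO against wt, where 6.5% of all tested genes were. In CD123 KO 1 was called lower against a background of 2.73%, and in CD33/CD123 KO 3 were against a background of 7.36%. None was called higher in any clone with edgeR, DESeq2 or limma-voom, against backgrounds of 1.96%, 2.62% and 1.86% in CD33 KO, CD123 KO and CD33/CD123 KO. At an unadjusted p under 0.05, 1 gene, SIGLEC7, was higher in each clone. Without the fold threshold, 5 of the 6 were lower and 1 was higher in CD33 KO, where 32.5% and 30.6% of all genes were. The counts in CD123 KO were 2 lower and 1 higher against 29.9% and 29.6%. In CD33/CD123 KO they were 4 lower and 1 higher against 29.8% and 28.8%. The median log2 fold change of the 6 genes was -1.69 in CD33 KO, -0.12 in CD123 KO and -1.59 in CD33/CD123 KO, and that of all tested genes was -0.02, 0.01 and -0.01. A gene that is low in the clones can enter the test through its wt libraries, so these counts and medians describe the 6 genes and support no statement about the family.

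**Figure D1:**
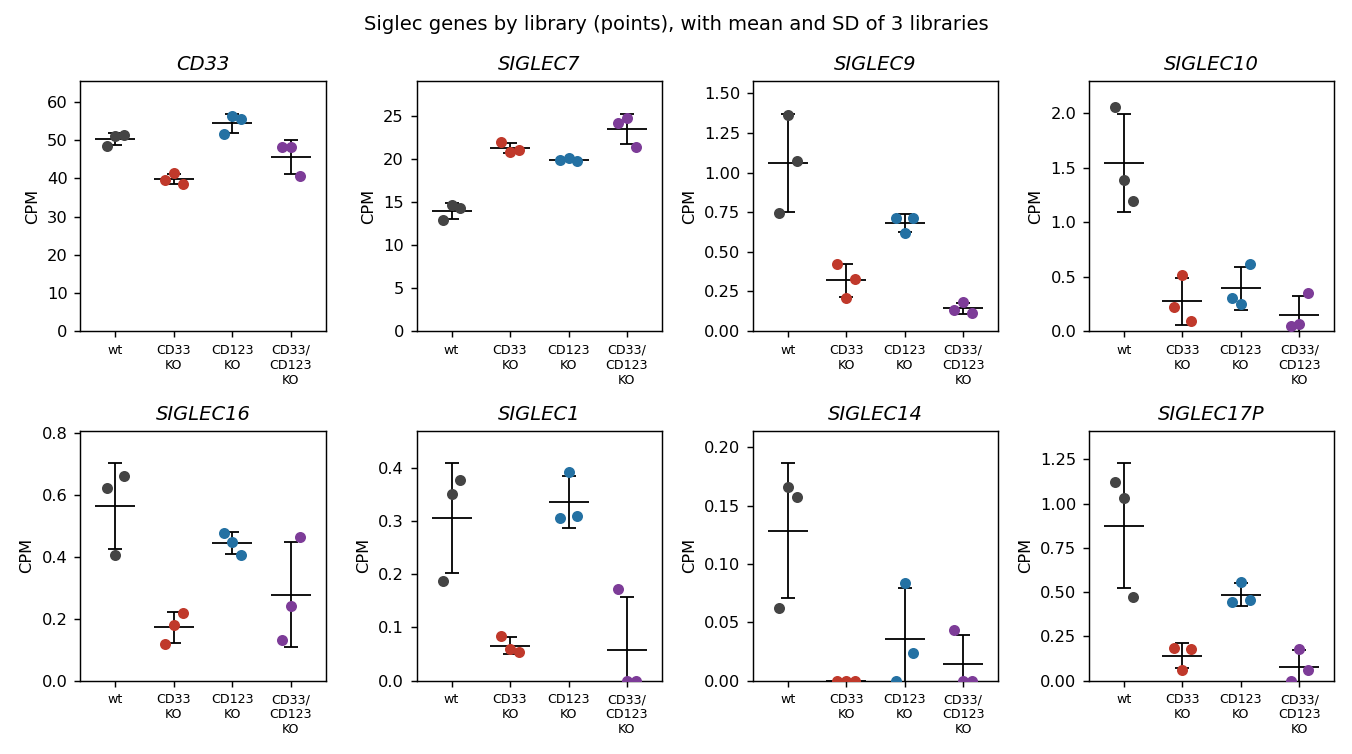
Level of 8 Siglec genes in each library in CPM (vertical axis, starting at 0), by group. Points are libraries, the horizontal line is the mean and the bar is the SD of 3 libraries. CD33 lies between 38.6 and 56.3 CPM in every library, SIGLEC7 is above wt in all edited libraries, and SIGLEC10 is at or below 0.620 CPM in every edited library against at least 1.20 CPM in wt.

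CD33 (hg19 chr19:51728335-51743274, plus strand, 1610 exon bases) had 48.6, 51.2 and 51.4 CPM in the wt libraries and 39.7, 41.4 and 38.6 CPM in CD33 KO. It had 51.7, 56.3 and 55.5 CPM in CD123 KO and 48.3, 48.3 and 40.5 CPM in CD33/CD123 KO. The CD33 KO libraries lay below all wt libraries, and the CD123 KO libraries above them, with no overlap in either case. In CD33/CD123 KO, libraries 1 and 2 were just under the lowest wt library and library 3 was well below.

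Against wt, CD33 was lower in CD33 KO by a log2 fold change of -0.34 (95% interval -0.47 to -0.22, adjusted p = 6.76e-06, edgeR), or 1.27-fold, which is short of a call. In CD123 KO the value was 0.11 (interval -0.02 to 0.24, adjusted p = 0.0939). In CD33/CD123 KO it was -0.14 (interval -0.28 to -0.01, adjusted p = 0.0392). That last difference was lost when library 3 of the CD33/CD123 KO clone was left out (-0.07, adjusted p = 0.291), and also without wt library 2 (-0.13, adjusted p = 0.115) or wt library 3 (-0.13, adjusted p = 0.108). Both clones given the CD33 guide thus kept most of the CD33 mRNA counted in wt, with means of 39.9 ± 1.40 and 45.7 ± 4.47 CPM against 50.4 ± 1.56 (SD, n = 3). CD33 was lower in CD33 KO than in CD123 KO (-0.45, adjusted p = 8.48e-08) and lower in CD33/CD123 KO than in CD123 KO (-0.25, adjusted p = 0.000567).

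SIGLEC7 (hg19 chr19:51645558-51656783, plus strand), an inhibitory receptor best known from natural killer cells and also found on monocytes, had 12.9, 14.6 and 14.3 CPM in wt. It had 22, 20.8 and 21 CPM in CD33 KO. The values were 19.9, 20.1 and 19.8 CPM in CD123 KO and 24.2, 24.8 and 21.5 CPM in CD33/CD123 KO. All 9 edited libraries exceeded all 3 wt libraries.

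The log2 fold change of SIGLEC7 against wt was 0.60 in CD33 KO (SE 0.07, adjusted p = 2.92e-08, edgeR), 0.50 in CD123 KO (SE 0.07, adjusted p = 9.56e-07) and 0.74 in CD33/CD123 KO (SE 0.07, adjusted p = 1.85e-09). These are 1.51-, 1.41- and 1.67-fold, all under the fold threshold. An antisense transcript, LOC101928517, covers 464 of the 1754 exon bases of SIGLEC7 (26.5%), and whether counting used the strand is not stated in the sources used. That transcript had 125 counts over all libraries together, against 1454 counts of SIGLEC7 in wt alone.

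SIGLEC9 (hg19 chr19:51628137-51639520, plus strand), an inhibitory receptor of neutrophils and monocytes, had 0.747, 1.37 and 1.07 CPM in wt and 0.420, 0.210 and 0.326 CPM in CD33 KO. It had 0.715, 0.616 and 0.715 CPM in CD123 KO and 0.130, 0.180 and 0.116 CPM in CD33/CD123 KO. The wt libraries were above all edited libraries, and the CD33/CD123 KO libraries were below all others.

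SIGLEC9 fell in CD33 KO (log2 fold change -1.75, SE 0.30, adjusted p = 1.71e-05, edgeR) and in CD33/CD123 KO (-2.97, SE 0.45, adjusted p = 2.89e-06). In CD123 KO the value was -0.72 (SE 0.29, adjusted p = 0.0328), short of a call. The call in CD33 KO was lost without wt library 2, at -1.49, just inside the fold threshold. The sums behind these values were 120 counts in wt, 50 in CD33 KO, 73 in CD123 KO and 8 in CD33/CD123 KO.

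SIGLEC10 (hg19 chr19:51913275-51921057, minus strand), an inhibitory receptor of B cells and some myeloid cells that binds CD24, had 2.05, 1.39 and 1.20 CPM in wt and 0.219, 0.510 and 0.0905 CPM in CD33 KO. It had 0.306, 0.252 and 0.620 CPM in CD123 KO and 0.0433, 0.0599 and 0.347 CPM in CD33/CD123 KO. No edited library reached the lowest wt library, and library 3 of CD33/CD123 KO stood apart from the other two of that clone.

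SIGLEC10 fell in all 3 clones, with log2 values of -2.59 in CD33 KO (SE 0.45, adjusted p = 3.83e-05, edgeR), -1.86 in CD123 KO (SE 0.43, adjusted p = 0.000944) and -3.36 in CD33/CD123 KO (SE 0.62, adjusted p = 9.08e-05). Single libraries moved these values without ending a call: -3.21 without CD33 KO library 2, -2.41 without CD123 KO library 3, and -4.79 without CD33/CD123 KO library 3, with -2.83 without its library 1. Of its 3394 exon bases, 586 (17.3%) overlap LOC100129083 on the opposite strand, which had 12 counts in all libraries together. SIGLEC10 summed to 146 counts in wt and to 35, 44 and 8 counts in the 3 clones.

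SIGLEC16 (hg19 chr19:50472912-50479076, plus strand), a DAP12-pairing receptor, had 0.623, 0.406 and 0.662 CPM in wt and 0.118, 0.180 and 0.217 CPM in CD33 KO. It had 0.476, 0.448 and 0.405 CPM in CD123 KO and 0.130, 0.240 and 0.463 CPM in CD33/CD123 KO. Only the CD33 KO libraries were all below wt, and the other clones overlapped it.

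SIGLEC16 fell in CD33 KO (log2 fold change -1.64, SE 0.42, adjusted p = 0.0013, edgeR), while the values were -0.28 in CD123 KO (adjusted p = 0.535) and -1.01 in CD33/CD123 KO (adjusted p = 0.0731). The CD33 KO call was lost without wt library 3 (-1.46) or without CD33 KO library 1 (-1.39). Without library 3 of CD33/CD123 KO, that clone too passed the call at -1.58 (adjusted p = 0.0238). Of the 50-base windows of a SIGLEC16 transcript, 32.5% also occur in SIGLEC11, an inhibitory neighbour, so its reads may be shared. That transcript has 2510 bases, while the counted SIGLEC16 entry has 1609 exon bases. SIGLEC11 itself was too low to be tested, with 34 counts in wt, 19 in CD33 KO, 24 in CD123 KO and 2 in CD33/CD123 KO.

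SIGLEC1 (hg19 chr20:3667617-3687775, minus strand), the long macrophage receptor sialoadhesin, lies outside the chromosome 19 cluster. It had 0.187, 0.351 and 0.378 CPM in wt and 0.0840, 0.0600 and 0.0543 CPM in CD33 KO. It had 0.306, 0.392 and 0.310 CPM in CD123 KO and 0.173, 0 and 0 CPM in CD33/CD123 KO. The CD123 KO libraries overlapped wt, whereas the libraries of both clones given the CD33 guide were all below it.

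SIGLEC1 fell in CD33 KO (log2 fold change -2.23, SE 0.59, adjusted p = 0.00148, edgeR) and in CD33/CD123 KO (-2.18, SE 0.77, adjusted p = 0.0142), and in CD123 KO the value was 0.03 (interval -1.03 to 1.09, adjusted p = 0.956). All 4 counts of the CD33/CD123 KO clone came from its library 1. The call there was lost without library 2 (-1.71, adjusted p = 0.0647) or library 3 (-1.69, adjusted p = 0.0677). Without library 1 the clone has no SIGLEC1 counts, and the fitted value of -6.56 (adjusted p = 0.00165) is then no estimate of size. In wt the gene summed to 34 counts.

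**Figure D2:**
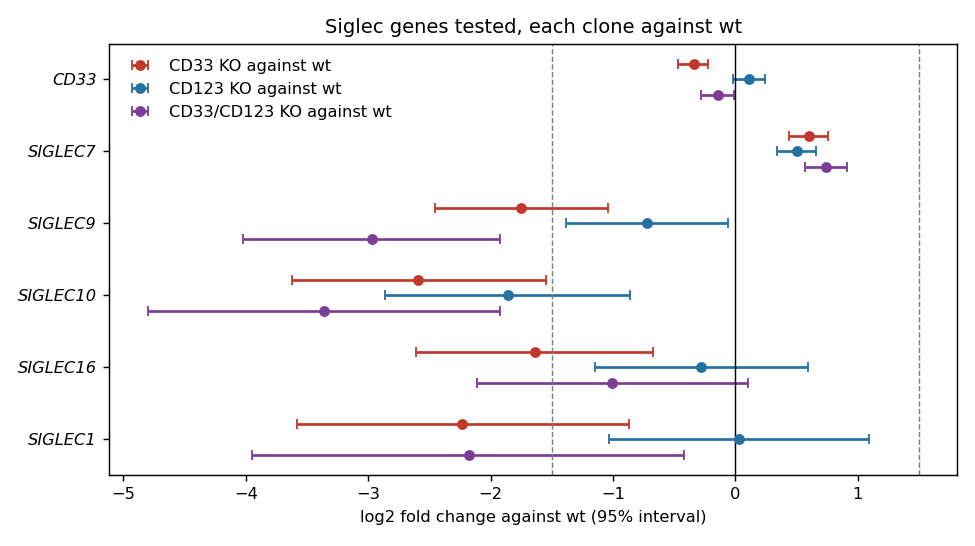
Log2 fold change against wt (horizontal axis) of the 6 tested Siglec genes in each clone, with 95% intervals from the edgeR fit. Dashed lines mark a log2 fold change of 1.5 in either direction. CD33 and SIGLEC7 have narrow intervals inside the lines, and the 4 genes of low level have wide ones, all 3 of SIGLEC10 lying below 0.

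The other 4 Siglec genes had too few counts to be tested. SIGLEC14 (hg19 chr19:52145806-52150132, minus strand), the DAP12-pairing partner of SIGLEC5, had 1, 9 and 5 counts in wt, 0 in every CD33 KO library, 0, 3 and 1 in CD123 KO, and 1, 0 and 0 in CD33/CD123 KO. The observed wt level, from 15 counts, was 7.26 times the limit of 3 counts over the CD33 KO group. That figure leaves out the counting error of the wt counts and so is not a lower bound. The ratio of wt to CD33/CD123 KO was 8.40 with an exact interval of 1.29 to 354, and that of wt to CD123 KO was 3.94 (1.25 to 16.3), for counting error only. SIGLEC5, an inhibitory receptor of neutrophils and monocytes, had 2 counts, both in wt library 3. Of the 50-base windows of SIGLEC14, 33.4% are also in SIGLEC5, so the sharing of reads between them is uncertain.

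SIGLEC15, a DAP12-pairing receptor of osteoclasts and macrophages, had 3 counts, all in CD33 KO. CD22, the inhibitory Siglec of B cells, had 0 counts in all 12 libraries, which allows a level of up to 0.00724 CPM over their summed depth. In a list of 20 other Siglec genes and pseudogenes, 7 were in the table and 1, the pseudogene SIGLEC17P, could be tested. It stood at 0.876 ± 0.352 CPM in wt, 0.142 ± 0.0710 in CD33 KO, 0.485 ± 0.0650 in CD123 KO and 0.0792 ± 0.0918 in CD33/CD123 KO (SD, n = 3). SIGLEC17P fell in CD33 KO (log2 fold change -2.46, adjusted p = 1.84e-05, edgeR) and in CD33/CD123 KO (-3.55, adjusted p = 4.04e-05), with -0.82 (adjusted p = 0.0616) in CD123 KO.

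Levels were set against each other per exon length, as CPM per kilobase of exon (RPKM). In wt, CD33 stood at 31.3 ± 0.969 RPKM and SIGLEC7 at 7.95 ± 0.532 (SD, n = 3). SIGLEC9 (0.526 ± 0.153), SIGLEC10 (0.455 ± 0.133) and SIGLEC16 (0.350 ± 0.0855) followed, and neighbours among these 3 did not differ beyond their SD. SIGLEC14 at 0.0609 RPKM and SIGLEC1 at 0.0454 RPKM were also within their SD of each other, and SIGLEC5 was at 0.00833 RPKM. CD33 therefore made up 76.4 to 77.5% of the summed Siglec RPKM in the wt libraries, SIGLEC7 18.9 to 20.0% and the rest 3.49 to 3.64%.

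In CD33 KO the share of CD33 was 65.6 to 67.7% and that of SIGLEC7 31.3 to 33.3%. In CD33/CD123 KO the shares were 66.5 to 68.1% and 31.4 to 32.3%, and in CD123 KO they were 72.5 to 74.1% and 24.2 to 25.7%. The other 8 genes together held 0.913 to 1.04% in CD33 KO, 1.60 to 1.81% in CD123 KO and 0.464 to 1.18% in CD33/CD123 KO, all below the wt range. The summed level itself was 40.7 ± 1.51 RPKM in wt, 37.3 ± 0.887 in CD33 KO, 46.0 ± 1.56 in CD123 KO and 42.1 ± 3.67 in CD33/CD123 KO.

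Set directly against the CD123 KO clone, the CD33/CD123 KO clone had 2 Siglec genes called lower, where 6.7% of all genes were. These were SIGLEC9 (log2 fold change -2.25, SE 0.49, adjusted p = 0.000282, edgeR) and SIGLEC1 (-2.22, SE 0.76, adjusted p = 0.0119). The SIGLEC1 call was lost without CD33/CD123 KO library 2 (-1.74, adjusted p = 0.0576) or library 3 (-1.73, adjusted p = 0.058), and without library 1, which leaves no counts in that clone, the fitted value was -6.59. The value for SIGLEC10 was -1.5 (adjusted p = 0.0913), and without library 3 of CD33/CD123 KO it was -2.93 (adjusted p = 0.0154).

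The CD33 KO clone against the CD123 KO clone had 1 call, SIGLEC1 (-2.26, SE 0.58, adjusted p = 0.00115, edgeR), where 6.14% of all genes were called lower. SIGLEC16 (-1.36, adjusted p = 0.00674) and SIGLEC9 (-1.03, adjusted p = 0.00726) were lower by less than the fold threshold, and SIGLEC16 passed it without CD33 KO library 3 (-1.61, adjusted p = 0.0094).

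Between the 2 clones given the CD33 guide, no Siglec gene was called by edgeR, DESeq2 or limma-voom, where edgeR called 1.83% of all genes lower and 1.35% higher. At an unadjusted p under 0.05, edgeR had 1 gene lower and 2 higher in CD33/CD123 KO than in CD33 KO, limma-voom the same numbers, and DESeq2 0 and 1. CD33 was higher in CD33/CD123 KO by 0.20 (interval 0.07 to 0.33, adjusted p = 0.0105, edgeR). The value for SIGLEC7 was 0.14 (interval -0.01 to 0.30, adjusted p = 0.126) and that for SIGLEC9 was -1.22 (interval -2.46 to 0.01, adjusted p = 0.0878). The intervals of SIGLEC10, SIGLEC16 and SIGLEC1 all included 0 and were wide, from -2.64 to 1.09, -0.64 to 1.91 and -2.26 to 2.35.

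Whether the changes of the CD33/CD123 KO clone were the sum of those in the single clones was tested as non-additivity, the change from CD33 KO to CD33/CD123 KO minus the change from wt to CD123 KO. SIGLEC7 alone had an adjusted p under 0.05, at -0.36 (interval -0.58 to -0.13, adjusted p = 0.00354, edgeR), where 24.7% of all genes were lower by that measure. Its level of 23.5 ± 1.79 CPM in CD33/CD123 KO was thus below what adding the 0.60 and 0.50 of the single clones on the log2 scale gives. No Siglec gene was called for non-additivity by edgeR, DESeq2 or limma-voom, where edgeR called 3.68% of all genes lower and 2.42% higher, and 1 had an unadjusted p under 0.05 with each. For SIGLEC10 the estimate was 1.08 (interval -1.22 to 3.38), which became -0.35 without CD33/CD123 KO library 3, and for SIGLEC9 it was -0.50 (interval -1.97 to 0.96).

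Signalling partners of the Siglecs were described next, from lists that hold none of the 10 genes. For comparison with the counts of each list that follows, 6.5% of all tested genes were called lower in CD33 KO, 2.73% in CD123 KO and 7.36% in CD33/CD123 KO. The shares called higher were 1.96%, 2.62% and 1.86%. By adjusted p alone, 32.5%, 29.9% and 29.8% of all tested genes were lower and 30.6%, 29.6% and 28.8% higher. In these lists, the marker lists and the genes around CD33, a gene low in the clones can likewise enter the test through its wt libraries. The counts and medians therefore describe the listed genes only. Among 13 genes of inhibitory signalling below ITIMs, 1 fell in CD33 KO and in CD33/CD123 KO and none was called in CD123 KO. The list's median log2 fold change was -0.06, -0.08 and -0.12 in CD33 KO, CD123 KO and CD33/CD123 KO. The phosphatase PTPN6 stood at 819.4 ± 19.3 CPM in wt and 776.2 ± 13.7, 650.6 ± 30.5 and 692.1 ± 13.5 CPM in the clones in the same order. PTPN11 stood at 209.9 ± 7.00, 228.8 ± 7.20, 193.9 ± 1.68 and 228.7 ± 6.11 CPM in wt and those clones. The called gene was SOCS3, a feedback inhibitor of cytokine signalling that also binds the phosphorylated motif of CD33. SOCS3 had 1.25, 1.03 and 0.819 CPM in wt, 0.319, 0.210 and 0.253 CPM in CD33 KO and 0.217, 0.240 and 0.173 CPM in CD33/CD123 KO (log2 fold change -1.89, adjusted p = 4.91e-06, and -2.24, adjusted p = 2.8e-05, edgeR). In CD123 KO its libraries, at 2.59, 3.11 and 1.95 CPM, were above wt by 1.33 (adjusted p = 2.32e-05), short of a call.

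Of 8 tested tyrosine kinases that act on ITIMs and their activating counterparts, 1 fell and 1 rose in CD33 KO, none was called in CD123 KO, and 1 rose in CD33/CD123 KO. The Src-family kinase FYN had 28.0, 28.9 and 27.9 CPM in wt and 80.0, 84.0 and 82.7 CPM in CD33 KO. It had 72.6, 74.5 and 100.4 CPM in CD33/CD123 KO, so the clones given the CD33 guide were both far above wt. FYN rose by a log2 fold change of 1.54 in each (adjusted p = 2.08e-07 and 3.35e-07, edgeR). The Src-family kinase FGR fell in CD33 KO (-1.99, adjusted p = 2.63e-08), from 1.65 ± 0.519 to 0.454 ± 0.0853 CPM. FGR was not lower in CD33/CD123 KO, where it stood at 3.12 ± 0.00275 CPM.

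Among adaptors of activating receptors, TYROBP, FCER1G and CARD9 fell far in 1 or both of the clones given the CD33 guide. Of 10 adaptors tested, 1 fell in CD33 KO, 1 rose in CD123 KO and 3 fell in CD33/CD123 KO. By adjusted p alone, 4, 3 and 5 were lower and 5, 5 and 3 higher in those clones (edgeR). GAB2 stood at 16.8 ± 0.536 CPM in wt and higher in the clones, at 47.1 ± 1.51, 32.95 ± 1.19 and 33.4 ± 6.16 CPM, short of a call. TYROBP, which encodes the DAP12 adaptor of SIGLEC14, SIGLEC15 and SIGLEC16, had 29.8, 27.0 and 25.2 CPM in wt and 29.3, 31.7 and 29.5 CPM in CD123 KO. It had 0.756, 0.570 and 0.905 CPM in CD33 KO and 0.433, 0.240 and 0.520 CPM in CD33/CD123 KO. In both clones given the CD33 guide TYROBP was thus below 1 CPM, with log2 values of -5.14 (SE 0.12, adjusted p = 4.07e-22, edgeR) and -6.06 (SE 0.16, adjusted p = 6.58e-21).

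HCST, the related DAP10 adaptor, rose in CD123 KO from 0.476 ± 0.182 to 1.69 ± 0.111 CPM (log2 fold change 1.76, adjusted p = 6.9e-06, edgeR), with -0.44 (adjusted p = 0.25) and -0.66 (adjusted p = 0.183) in CD33 KO and CD33/CD123 KO. FCER1G, the Fc receptor gamma chain, had 73.0, 68.2 and 67.0 CPM in wt and 1.95, 2.40 and 2.26 CPM in CD33/CD123 KO. In that clone FCER1G fell by 4.99 on the log2 scale (adjusted p = 2.91e-25), whereas in CD33 KO it stood at 114.7 ± 1.89 CPM and in CD123 KO at 92.4 ± 4.80 CPM. CARD9, which relays signals of activating receptors, also fell in CD33/CD123 KO, from 59.4 ± 3.75 to 6.20 ± 1.79 CPM (-3.29, adjusted p = 1.73e-10).

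**Figure D3:**
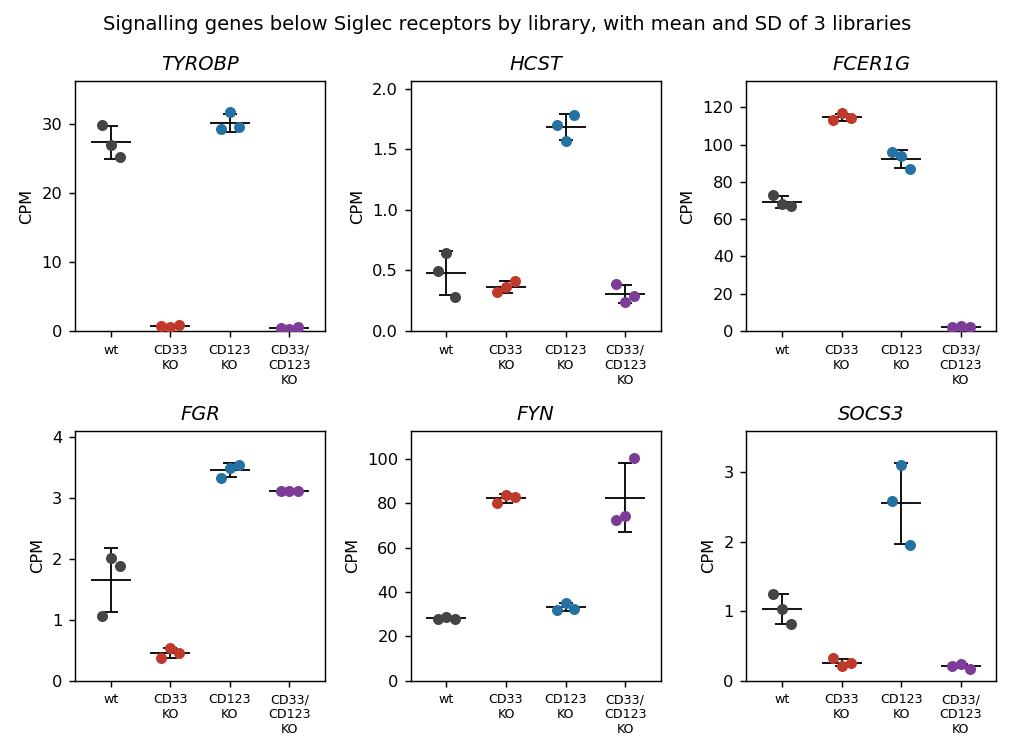
Level of 6 signalling genes in each library in CPM (vertical axis, starting at 0), by group, with the mean and SD of 3 libraries. TYROBP is below 1 CPM in every library of CD33 KO and CD33/CD123 KO, FCER1G is below 3 CPM only in CD33/CD123 KO, and FYN is high in both clones given the CD33 guide.

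The list for sialic acid, the sugar that Siglecs bind, holds the enzymes that make and attach it, its transporter SLC35A1, the sialidases NEU1, NEU3 and NEU4 that remove it, and CASD1 and SIAE, which add and remove its acetyl groups. Of 21 tested, none was called in CD33 KO or CD123 KO (edgeR), where 1 and 9 were lower and 8 and 7 higher by adjusted p alone, and 1 fell in CD33/CD123 KO. That gene was ST6GAL1, which adds alpha-2,6-linked sialic acid, the linkage preferred by CD22 and among those bound by CD33. ST6GAL1 had 14.6, 12.1 and 12.9 CPM in wt and 1.47, 2.34 and 2.37 CPM in CD33/CD123 KO (log2 fold change -2.70, SE 0.14, adjusted p = 1.04e-14, edgeR). Its levels in CD33 KO (11.7 ± 0.514 CPM) and CD123 KO (9.89 ± 0.968 CPM) differed from wt by a log2 fold change of -0.16 (adjusted p = 0.187) and -0.41 (adjusted p = 0.00208). Of 8 tested glycoproteins known to bind Siglecs, 1 rose in each clone, the secreted protein LGALS3BP, from 0.769 ± 0.181 CPM in wt to 3.92 ± 0.511, 3.14 ± 0.483 and 3.54 ± 0.542 CPM in CD33 KO, CD123 KO and CD33/CD123 KO. Its log2 fold changes were 2.36, 2.05 and 2.22 (adjusted p = 6.94e-11, 3.54e-09 and 1.54e-09, edgeR).

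Other inhibitory receptors of myeloid cells that carry ITIMs were also followed. Of 12 tested, 4 fell in CD33 KO, 2 in CD123 KO and 4 in CD33/CD123 KO, and none rose (edgeR). By adjusted p alone, 9, 5 and 8 were lower and 1, 3 and 1 higher in those clones. The shares of all tested genes by that measure were 32.5%, 29.9% and 29.8% lower and 30.6%, 29.6% and 28.8% higher. The median log2 fold change of the list was -0.53, -0.18 and -0.53. In CD123 KO, PECAM1 stood at 39.5 ± 2.86 CPM against 14.6 ± 1.48 in wt, short of a call. MILR1 (11.1 ± 0.491 against 4.22 ± 0.284 CPM) and CLEC12A (3.6 ± 0.125 against 1.32 ± 0.47 CPM) were also above wt there without a call. LILRB1, which binds HLA class I, stood at 3.27 ± 0.318 CPM in wt, 0.364 ± 0.0845 in CD33 KO, 0.991 ± 0.234 in CD123 KO and 0.0992 ± 0.125 in CD33/CD123 KO. It fell in all 3 clones (log2 fold change -3.11, -1.69 and -5.16). CD300A, a receptor for phospholipids, also fell in each, with 0.996, 1.33 and 1.73 CPM in wt and 0 in every CD33 KO library. PILRA fell to 2.63 ± 0.482 and 2.63 ± 0.460 CPM in CD33 KO and CD33/CD123 KO from 9.34 ± 0.627 in wt, with 9.45 ± 0.779 in CD123 KO. LILRB2 fell in the same pair of clones (-4.38 and -3.07).

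Of 15 tested regulators of myeloid gene expression, 2 fell in CD33 KO, 1 rose in CD123 KO, and 2 fell and 1 rose in CD33/CD123 KO. By adjusted p alone, 3, 2 and 3 were lower and 11, 9 and 11 higher in those clones (edgeR). Over all tested genes 32.5%, 29.9% and 29.8% were lower and 30.6%, 29.6% and 28.8% higher by that measure. The list's median log2 fold change was 0.35, 0.14 and 0.25. KLF4 stood at 18.96 ± 0.925 CPM in wt and 41.16 ± 2.03, 52.35 ± 4.135 and 40.65 ± 2.68 CPM in those clones. MEF2C, a transcription factor of myeloid and lymphoid development, stood at 47.7 ± 2.38 CPM in wt and fell in CD33 KO (log2 fold change -2.17, to 10.5 ± 0.953 CPM) and in CD33/CD123 KO (-1.76, to 14.0 ± 0.518 CPM). CEBPE, a regulator of late granulocyte development, rose in CD123 KO (2.01) and CD33/CD123 KO (1.66). SPI1, which encodes PU.1, stood at 250.7 ± 7.85 CPM in wt and at 248.4 ± 6.42, 273.2 ± 7.95 and 240.9 ± 13.1 CPM in CD33 KO, CD123 KO and CD33/CD123 KO.

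**Figure D4:**
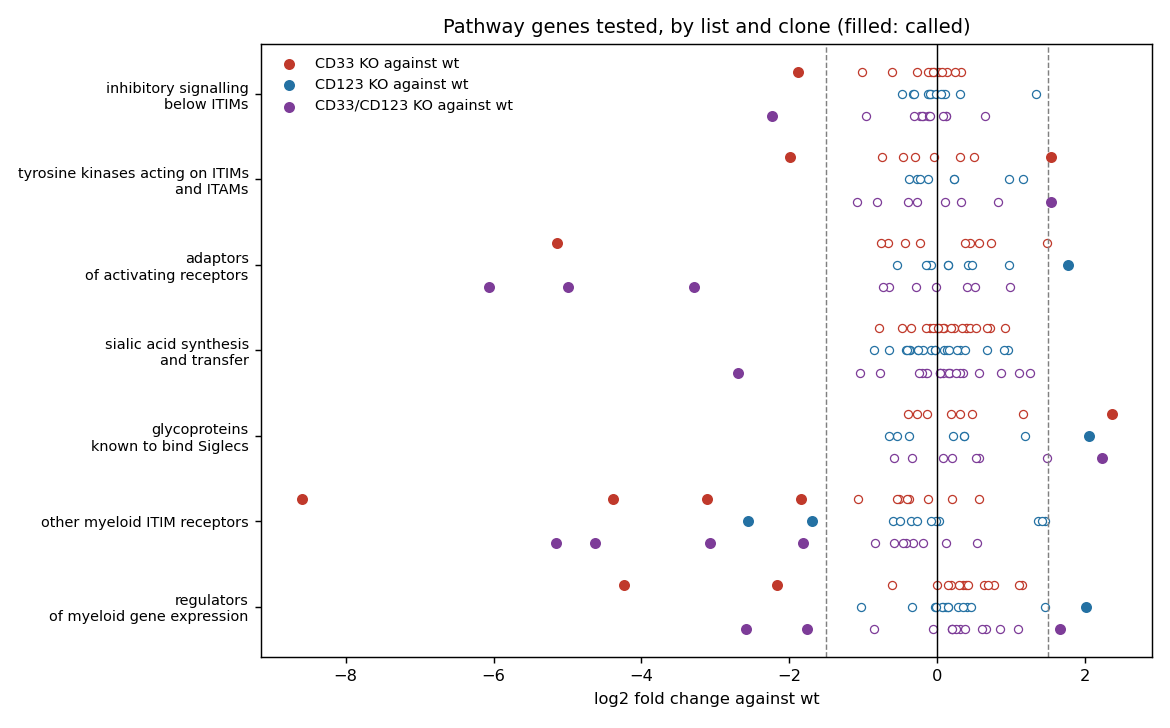
Log2 fold change against wt (horizontal axis) of every tested gene in 7 pathway lists, with 1 row of points for each clone. Filled points were called and dashed lines mark a log2 fold change of 1.5 in either direction. Adaptors and other myeloid ITIM receptors hold the points farthest to the left. The leftmost point is CD300A in CD33 KO, a fitted value for a gene with 0 counts there.

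Siglecs also mark particular blood cells, and marker lists of those cells moved with some of the falls. Of 9 tested monocyte and macrophage markers 6 fell in CD33 KO, 1 in CD123 KO and 5 in CD33/CD123 KO, where 6.5%, 2.73% and 7.36% of all tested genes did. The summed level of the list was 198 to 218 CPM in wt, 132 to 137 in CD33 KO, 243 to 271 in CD123 KO and 146 to 153 in CD33/CD123 KO. CD36, the highest of the list in wt, stood at 83.5 ± 2.07 CPM there and at 12.05 ± 0.357, 119.8 ± 7.52 and 53.8 ± 3.225 CPM in those clones. The list has 12 genes, of which MRC1 was at 0 in every library. By adjusted p alone, 6, 3 and 7 of the 9 were lower and 3, 4 and 2 higher in CD33 KO, CD123 KO and CD33/CD123 KO (edgeR). Of all tested genes, 32.5%, 29.9% and 29.8% were lower and 30.6%, 29.6% and 28.8% higher by that measure. The markers did not move one way. CD14 stood at 4.05 ± 0.517 CPM in wt, 0.259 ± 0.0968 in CD33 KO, 6.01 ± 0.623 in CD123 KO and 0.0681 ± 0.0161 in CD33/CD123 KO. FCGR1A, an Fc receptor, stood at 44.1 ± 4.71, 76.6 ± 0.809, 41.6 ± 2.37 and 50.8 ± 0.320 CPM in the same groups, and the integrin ITGAM at 6.50 ± 0.655, 10.7 ± 0.459, 12.8 ± 1.35 and 17.6 ± 2.01 CPM. The 10 B cell markers summed to 7.35 to 10.2 CPM in wt, 2.91 to 3.75 in CD33 KO, 2.74 to 4.02 in CD123 KO and 1.21 to 2.08 in CD33/CD123 KO, with BLK and VPREB1 at 0 in every library. BANK1 (4.73 ± 0.821 CPM) and EBF1 (2.72 ± 0.628 CPM) were the highest of them in wt. Of 4 tested, 2 fell in CD33 KO, 2 fell and 1 rose in CD123 KO, and 3 fell in CD33/CD123 KO. The gene that rose was CD79A, from 0.154 ± 0.0873 CPM in wt to 0.572 ± 0.136 in CD123 KO. The T and NK cell markers summed to 240 to 248 CPM in wt, 343 to 364 in CD33 KO, 282 to 325 in CD123 KO and 174 to 179 in CD33/CD123 KO. Nearly all of this was NCAM1 (243.3 ± 5.04, 356.3 ± 12.2, 304.6 ± 21.8 and 176.7 ± 2.15 CPM), while CD3D, CD3E, CD2 and KLRD1 were at 0 in every library. NKG7, also on that list, is described with the genes around CD33. In bulk RNA, fewer cells expressing a gene and less RNA in each cannot be told apart, and the part of these marker lists in the Siglec values was not tested.

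Since most Siglec genes are neighbours, the other genes within 500 kb of CD33 were examined. The table holds 53 of them and 17 were tested. Of these, 4 fell in CD33 KO, 1 in CD123 KO and 7 in CD33/CD123 KO, and none rose (edgeR). By adjusted p alone, 9, 3 and 8 of the 17 were lower and 3, 2 and 1 higher. Among all tested genes, 32.5%, 29.9% and 29.8% were lower and 30.6%, 29.6% and 28.8% higher by that measure. Over all tested genes the shares called lower were 6.5%, 2.73% and 7.36%. In CD33 KO the 4 were SIGLEC9, SIGLEC17P, SIGLEC10 and NKG7, a cytotoxic granule gene 146.5 kb from CD33. In CD123 KO the 1 was SIGLEC10. In CD33/CD123 KO, KLK1, SPACA6P and ACPT joined those 4. NKG7 stood at 1.98 ± 0.515 CPM in wt, 0.656 ± 0.106 in CD33 KO, 1.67 ± 0.0716 in CD123 KO and 0.204 ± 0.175 in CD33/CD123 KO (log2 fold change -1.57, -0.23 and -3.32). KLK1 fell in CD33/CD123 KO (-3.64, adjusted p = 2.3e-07, edgeR).

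Genes that fell were interleaved with genes that did not. SIGLEC7 lies between SIGLEC9 and SIGLEC17P, and CD33 itself lies between SIGLEC17P and NKG7. ETFB, a mitochondrial electron transfer gene 120.1 kb from CD33, had log2 fold changes of -0.24, -0.07 and -0.09 in CD33 KO, CD123 KO and CD33/CD123 KO. The median over the 17 genes was -0.49, -0.02 and -0.63 in the same order.

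**Figure D5:**
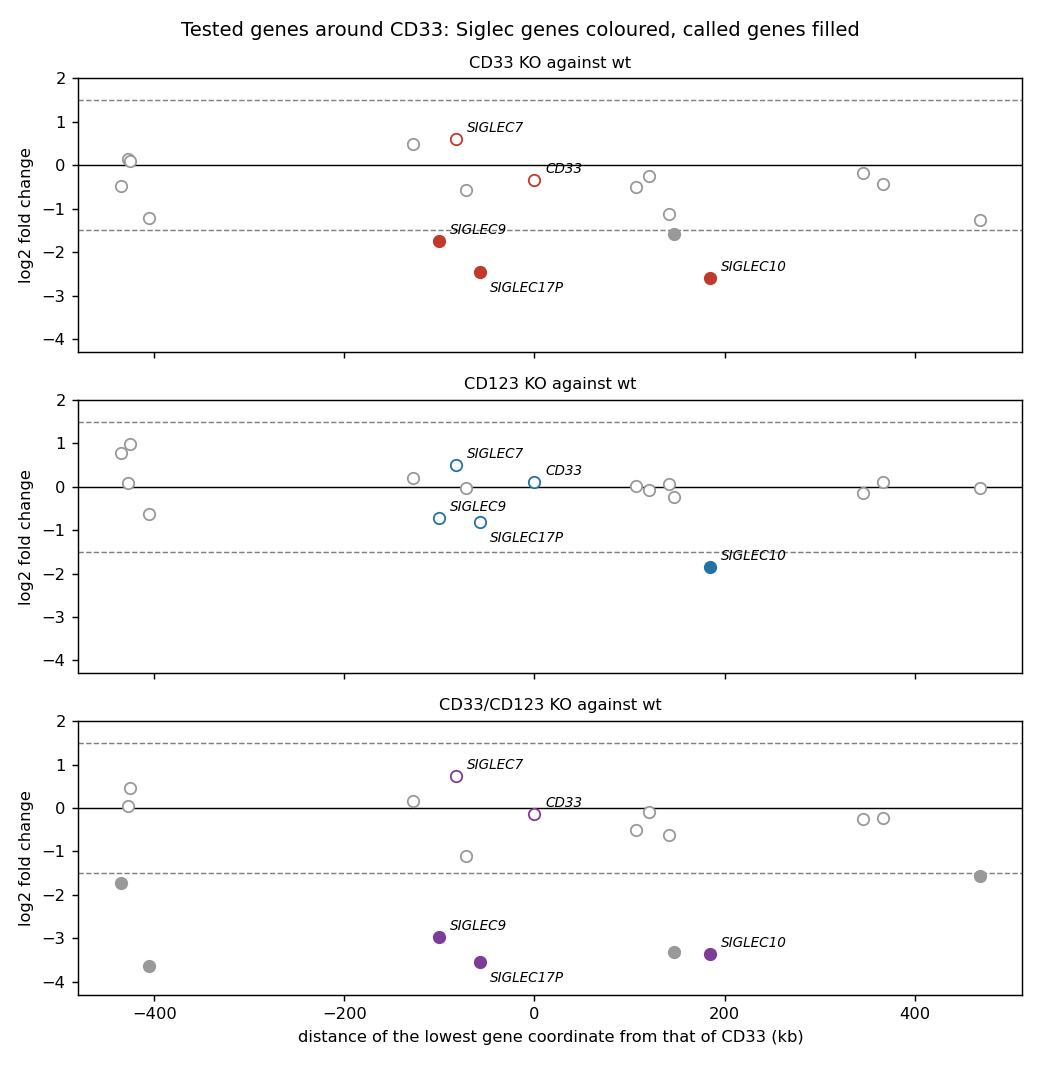
Log2 fold change against wt (vertical axis) of the tested genes within 500 kb of CD33, by distance in kb of the lowest gene coordinate from that of CD33 (horizontal axis), in 1 panel per clone. Siglec genes are coloured, others grey, called genes are filled, and dashed lines mark 1.5 in either direction. SIGLEC9, SIGLEC17P and SIGLEC10 fall in CD33 KO and CD33/CD123 KO, with SIGLEC7 and CD33 between them inside the lines.

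The promoters of CD33 and SIGLEC9 are shown because the genes are near relatives in 1 cluster whose levels differed in the CD33 KO clone, with CD33 near its wt level and SIGLEC9 called lower. The bases run from 250 to 21 bases before the RefSeq start of each gene (RefSeq, GRCh38.p14), at chr19:51224830-51225059 and chr19:51124630-51124859, both on the plus strand. Capitals mark a match on either strand to GAGGAA, the core bound by PU.1, or to TTGCNNAA, a C/EBP core.
CD33 promoter: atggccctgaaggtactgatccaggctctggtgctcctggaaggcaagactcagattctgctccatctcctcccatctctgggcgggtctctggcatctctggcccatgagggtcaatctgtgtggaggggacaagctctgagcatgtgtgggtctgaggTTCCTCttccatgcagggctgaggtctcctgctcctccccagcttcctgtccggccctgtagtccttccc
SIGLEC9 promoter: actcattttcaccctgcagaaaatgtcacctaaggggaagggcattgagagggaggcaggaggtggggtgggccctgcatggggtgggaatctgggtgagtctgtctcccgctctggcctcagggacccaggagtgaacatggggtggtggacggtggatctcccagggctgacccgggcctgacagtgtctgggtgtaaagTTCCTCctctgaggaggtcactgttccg
Both windows held 1 match to GAGGAA on the minus strand, 90 bases before the start in CD33 and 48 in SIGLEC9, and none to TTGCNNAA. Of 35116 RefSeq promoter windows of the same length, 21.7% held GAGGAA and 8.53% held TTGCNNAA, and the 2 motifs do not overlap in these sequences. Of the windows of 9 Siglec genes, those of SIGLEC7 and SIGLEC15 also held 1 GAGGAA match, those of SIGLEC5, SIGLEC10, SIGLEC14, SIGLEC16 and CD22 held none, and no window held TTGCNNAA. The windows of SIGLEC5, SIGLEC7, SIGLEC10 and SIGLEC15 lie partly or wholly in annotated exons. A match is a string of letters and was not tested as a binding site.

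The genes whose log2 CPM followed each Siglec gene most closely over the 12 libraries are given as a description. Over 12119 other genes, those most like CD33 were STXBP3, ACAD8 and UROD (Pearson r of 0.972, 0.970 and 0.968). Among those most like SIGLEC9 were MAP4K1 (0.971) and RPP25 (0.968), and for SIGLEC10 the 3 were SLC16A5 (0.949), RLTPR (0.941) and CPSF1 (0.916). For SIGLEC1 they were SPACA6P (0.966), ZEB2-AS1 (0.948) and NHSL1 (0.947), and for SIGLEC16 KLLN (0.924), FMO5 (0.919) and TRIM35 (0.912). The points share 4 groups, so these values reflect differences between the groups as well as between libraries.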

How the data were processed

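The authors deposited 1 table of raw counts per gene for 12 poly(A) libraries. Per the submitters' processing notes, HISAT2, the hg19 build, featureCounts and edgeR were used, while their versions and the strand and multimapping settings were not given in the sources used here. Directional library kits were used, per the labels' protocols. From the counts, genes passing filterByExpr were scaled by TMM and fitted over all 12 libraries without covariates in edgeR 4.0.16 (R 4.3.3, robust quasi-likelihood F-test, 8 residual degrees of freedom), with Benjamini-Hochberg adjustment over 14010 genes in each comparison. Calls used the thresholds of the series' design, an adjusted p under 0.05 and an absolute log2 fold change over 1.5. Intervals are at 95%. Those of log2 fold changes use the 8 residual degrees of freedom, fewer than the test itself uses. They are therefore somewhat wide, and one can include 0 where the unadjusted p is under 0.05. CPM and RPKM were computed here from TMM-scaled counts and the exon lengths of the table. DESeq2 1.42.0 and limma 3.58.1 were alternatives, with other filters, scalings, thresholds and left-out libraries. The scripts were tested on simulated data.

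Groups followed the genotype labels. The genes, lists and tests were chosen with earlier results of these data known. Of each list, up to 4 called genes per clone with the smallest adjusted p are named, and up to 6 around CD33. Added after their values were seen were PTPN6, PTPN11, SPI1, KLF4, GAB2, PECAM1, MILR1, CLEC12A, CD14, FCGR1A, ITGAM, NCAM1, ACPT, ETFB, IL3RA and SIGLEC11. The same holds for genes named beside a clone that did not call them. The 3 most similar genes are those with the highest correlation of log2 CPM (prior count of 2) at a mean of at least 1 CPM. The guide and transcripts were compared in GENCODE v29 (GRCh38), and no coordinates were converted between builds. Some genes that these rules would name are not reported here.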

Additional observations from a re-analysis of the deposited data

Results flagged for a closer look

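SIGLEC7 differed between the clones in its change with the CD123 edit. The log2 change was 0.50 from wt to CD123 KO and 0.14 from CD33 KO to CD33/CD123 KO, and the difference between them was -0.36 (interval -0.58 to -0.13, adjusted p = 0.00354, edgeR). Leaving out each library in turn gave -0.40 to -0.31. Each genotype is 1 clone, so the edits and the clones cannot be told apart.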

How the results depend on the processing

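No paired analysis was possible because the groups share no replicate number in the labels. Over the 6 tested genes and the 7 comparisons, leaving aside CD33 against wt, which is given apart, 546 results from other tools, filters, scalings and left-out libraries were compared with the reported ones: 536 stayed on the same side of the call, 7 lost it, 3 gained it and 0 reversed. Settings in which a gene was no longer tested are left out of these numbers. Calls lost in that way are therefore not among the 7. With a filter of 1 CPM in 3 libraries, fewer Siglec genes were tested and the calls were 1 in CD33 KO and 1 in CD33/CD123 KO against wt, 0 in CD33/CD123 KO against CD123 KO and 0 in CD33 KO against CD123 KO. With only the groups compared in the fit, CD33/CD123 KO against CD123 KO had 1 Siglec call, and CD33 in CD33/CD123 KO against wt was -0.15 with an adjusted p of 0.05. Left-out libraries gave 1 to 2 Siglec calls in each of CD33/CD123 KO and CD33 KO against CD123 KO, and CD33 in CD33/CD123 KO against wt ranged from -0.19 to -0.07. The cause of these shifts other than the filter was not tested.

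Siglec calls by adjusted p alone were 3 in CD123 KO and 5 in CD33/CD123 KO against wt, 1 in CD33/CD123 KO against CD33 KO, 4 in CD33/CD123 KO against CD123 KO, 4 in CD33 KO against CD123 KO and 1 for non-additivity. At a log2 fold change over 1, CD33 KO against CD123 KO had 3. Over all genes a log2 fold change over 1 gave 1862 calls in CD33 KO against the reported 1184, and 1468 in CD123 KO against 750. It gave 736 in CD33/CD123 KO against CD33 KO (446 reported), 1715 in CD33/CD123 KO against CD123 KO (1071), 1793 in CD33 KO against CD123 KO (1044) and 1499 for non-additivity (855). By adjusted p alone these became 8838, 8339, 3928, 8350, 9086 and 6901 in the same order, and 8207 in CD33/CD123 KO against wt (1291). Scaling by library size alone moved the median of all genes to -0.13 in CD33 KO and -0.12 in CD33/CD123 KO. Shallow counts limit SIGLEC14, SIGLEC5, SIGLEC15 and CD22 to the values given.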
